A study of Mus musculus with 6 samples.

Results

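The 10 genes described here make and load MHC class I molecules in mouse adrenal glands: the heavy chains H2-K1 and H2-D1, their light chain B2m, the peptide transporter chains Tap1 and Tap2, the loading factor Tapbp (tapasin), the immunoproteasome subunits Psmb8, Psmb9 and Psmb10, and the transactivator Nlrc5. They were chosen by symbol and found by Ensembl identifier, 10 of the 54532 genes in the count table, and all 10 passed the filter on low counts that left 16300 genes for testing. Bulk RNA sequencing was done on whole adrenal glands labelled VEGF/LysM (3 samples) and WT (3 samples), in a series that asks what VEGF-A of macrophages does to the gland. The labels give no allele, promoter, strain, age, sex or treatment for either group, and do not say whether replicates were separate animals or pooled glands. LysM is a usual name of Lyz2, a lysozyme gene of myeloid cells. A p-value here weighs only how far these 6 samples scatter, and that scatter may be technical.

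MHC class I molecules show fragments of a cell's own proteins to CD8 T cells and to natural killer cells. Proteasomes cut the proteins, the Tap1-Tap2 pump moves the fragments into the endoplasmic reticulum, and tapasin holds the empty class I molecule beside the pump until a fitting peptide binds. Interferon gamma raises most of these genes and swaps the catalytic subunits of the standard proteasome for their immunoproteasome forms. Nearly every nucleated cell carries class I, with leukocytes and endothelial cells usually carrying much of it, so a whole gland reports a sum over many cell types. In such a sum, fewer cells of a type and less RNA per cell cannot be told apart.

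The 6 libraries held 16476879 to 18671950 counts. CPM is the count scaled to library size and TMM factor. The cortex marker list (7 genes, Star and Cyp11b1 among them) summed to 43782 to 53345 CPM in VEGF/LysM libraries. In WT replicates 1, 2 and 3 the list summed to 49419, 45598 and 28119.7 CPM. Vegfa, named in the group label, reached 180.3, 193 and 501 CPM in VEGF/LysM (replicates 1, 2 and 3), against 295, 241 and 332 CPM in WT replicates 1, 2 and 3, so the groups overlapped, in a measure that sums Vegfa over all cells of the gland. Lyz2 stood at 132, 111 and 134 CPM in VEGF/LysM and at 186, 275 and 263 CPM in WT. Its log2 fold change was -0.94 ± 0.19 SE, with an unadjusted p of 0.00182 and an adjusted p of 0.999 in edgeR's test. The VEGF/LysM values of Lyz2 lay wholly below the WT values, as did those of 2.41% of all genes tested. WT replicate 3 stood apart from the rest: 11 hepatocyte genes summed to 78296 CPM there, to 255 CPM in VEGF/LysM replicate 3, and to 2.29 to 5.99 CPM in the other 4 libraries. Kidney tubule markers (6 genes) summed to 35.5 CPM in WT replicate 3, to 2.94 CPM in VEGF/LysM replicate 3, and to 0.293 to 1.58 CPM in the other 4. The T, B and NK cell list (14 genes) summed to 1154 CPM in WT replicate 3, against 76.3 to 278 CPM elsewhere. The fits and ratios below were therefore also made without that library, and without it and VEGF/LysM replicate 3 together.

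All 10 genes were lower on average in VEGF/LysM than in WT, and none passed the test. In edgeR's quasi-likelihood fit the median log2 fold change of the 10 was -0.39, against 0.0013 over all 16300 genes, and 49.7% of all genes tested were below 0. No gene of the 10 was called at an adjusted p of 0.05 (adjusted p = 0.999 for each), and 0% of all genes tested were called. At an unadjusted p under 0.05 there was 1 of the 10, Psmb10, where 2.82% of all genes tested reached that mark. The VEGF/LysM values lay wholly below the WT values for 2 of the 10, Psmb10 and Tapbp, where 2.41% of all genes tested did so. They lay wholly above the WT values for 0 of the 10, where 3.54% of all genes tested did so. As the genes belong to 1 pathway and share their libraries, 10 equal signs are not 10 independent observations. Without WT replicate 3 the median was -0.21 with 9 of 10 genes below 0, without VEGF/LysM replicate 3 it was -0.64, and without both it was -0.43, with 10 of 10 below 0 in the last 2 fits.

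**Figure D1:**
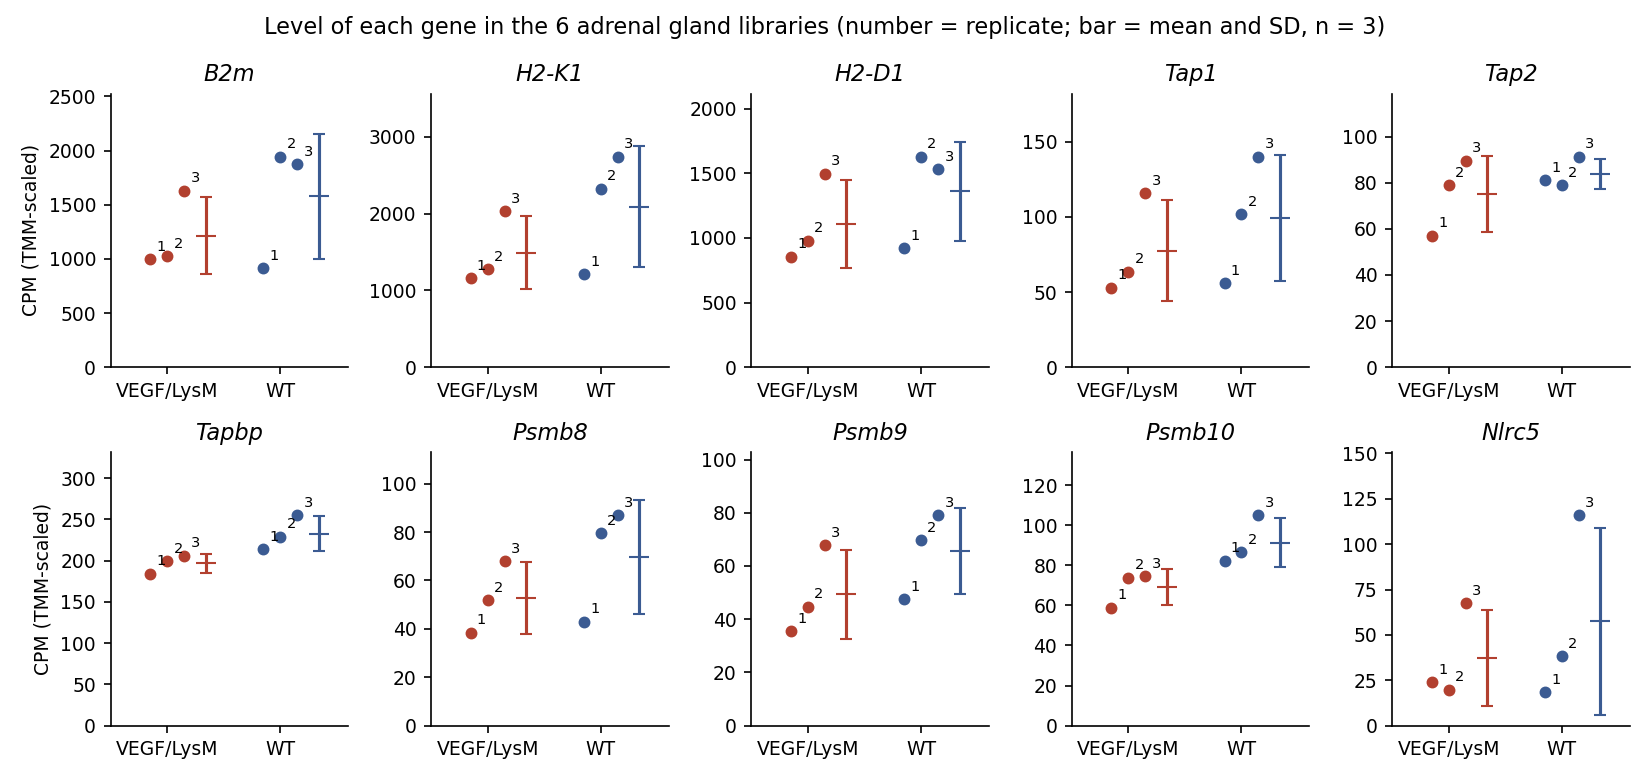
Level of each of the 10 genes in TMM-scaled CPM (vertical axes from 0, scaled per gene) in VEGF/LysM and WT glands; points are libraries with their replicate number, and the bar beside them is the mean ± SD (n = 3). In most panels replicate 3 of VEGF/LysM lies above VEGF/LysM replicates 1 and 2, towards WT replicates 2 and 3. For B2m, H2-K1, H2-D1, Psmb8 and Psmb9 it is still below both of these. In most panels WT replicate 1 lies level with VEGF/LysM replicates 1 and 2. Psmb10 and Tapbp are the panels where the groups do not overlap.

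The class I molecule itself was abundant. H2-K1, the heavy chain of the K locus (ENSMUSG00000061232, chr17:33996017-34000347, minus strand, GRCm38), had 1163, 1276 and 2034 CPM in VEGF/LysM replicates 1, 2 and 3, against 1208, 2327 and 2743 CPM in WT replicates 1, 2 and 3. WT replicate 1 sat among the low VEGF/LysM libraries and VEGF/LysM replicate 3 near the high WT ones, so the groups overlapped. Its log2 fold change was -0.49 ± 0.36 (SE; 95% interval -1.35 to 0.37). H2-D1, the heavy chain of the D locus (ENSMUSG00000073411, chr17:35262730-35267499, plus strand), had 854, 977 and 1496 CPM in VEGF/LysM and 921, 1628 and 1533 CPM in WT, with the same 3 libraries high (-0.30 ± 0.31). B2m, the invariant light chain that every class I heavy chain needs to reach the cell surface (ENSMUSG00000060802, chr2:122147686-122153083, plus strand), had 995, 1023 and 1629 CPM in VEGF/LysM and 915, 1944 and 1876 CPM in WT. Its lowest library was a WT one, and its log2 fold change was -0.38 ± 0.35 (95% interval -1.20 to 0.45). Without WT replicate 3 the log2 fold changes were -0.252 for H2-K1, -0.207 for H2-D1 and -0.241 for B2m, and without VEGF/LysM replicate 3 they were -0.778, -0.571 and -0.644. Together these 3 genes took 0.31, 0.334 and 0.532% of all counts in VEGF/LysM replicates 1, 2 and 3, against 0.318, 0.618 and 0.478% in WT replicates 1, 2 and 3.

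Heavy and light chains kept close to 1 ratio across libraries. Counts of H2-K1 over those of B2m were 1.17, 1.25 and 1.25 in VEGF/LysM and 1.32, 1.2 and 1.46 in WT, highest in WT replicate 3. Counts of H2-D1 over B2m were 0.859, 0.955 and 0.919 in VEGF/LysM and 1.01, 0.838 and 0.817 in WT. The heavy chains carry sequence that other class I genes share: of the distinct 31-base words in annotated H2-K1 transcripts, 22.8% also occur in another gene, 11.1% in H2-D1 and 9.5% in H2-Q10, and for H2-D1 the total is 26.9%. B2m shares no such word. H2-Q10, a class I gene whose product the liver secretes, had 28.5, 56.0 and 31.6 CPM in VEGF/LysM and 39.8, 50.1 and 1371 CPM in WT, so in WT replicate 3 the split of reads between H2-Q10 and H2-K1 is least certain. How many reads moved between them was not tested.

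The promoters of H2-K1, H2-D1 and B2m are shown because these genes varied together across the 6 libraries, and that of Tap1 because it is shared with Psmb9. Each is a RefSeq window of GRCm38.p6, from 250 bases before to 50 bases after its RefSeq start site, on the gene's own strand. That start site need not be the end of the gene span printed with each gene, which comes from another annotation. The H2-D1 window, for example, begins at 35262844, inside a gene span that begins at 35262730. Capitals mark the motifs searched on both strands: the interferon response core as GAAANNGAA or GAANNGAAA (the form GAANNGAAA was added after the sequences were seen), the NF-kB site GGGATTCCC, the Y box ATTGG bound by NF-Y, and TGACG, the core of the X2 box. The windows lie at chr17:34000298-34000597 (minus strand), chr17:35262844-35263143, chr2:122147437-122147736 and chr17:34187306-34187605, in the order below.
H2-K1: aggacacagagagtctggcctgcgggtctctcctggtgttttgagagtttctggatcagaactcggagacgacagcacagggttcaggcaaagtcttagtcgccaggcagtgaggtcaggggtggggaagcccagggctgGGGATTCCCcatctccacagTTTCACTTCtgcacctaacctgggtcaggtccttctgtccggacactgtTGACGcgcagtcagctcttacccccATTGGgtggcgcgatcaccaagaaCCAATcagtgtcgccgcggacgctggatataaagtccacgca
H2-D1: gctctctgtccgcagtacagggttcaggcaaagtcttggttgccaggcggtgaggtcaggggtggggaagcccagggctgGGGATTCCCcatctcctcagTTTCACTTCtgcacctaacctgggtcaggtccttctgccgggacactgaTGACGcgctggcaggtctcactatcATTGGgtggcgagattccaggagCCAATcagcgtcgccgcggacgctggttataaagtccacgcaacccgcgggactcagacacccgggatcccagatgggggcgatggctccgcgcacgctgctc
B2m: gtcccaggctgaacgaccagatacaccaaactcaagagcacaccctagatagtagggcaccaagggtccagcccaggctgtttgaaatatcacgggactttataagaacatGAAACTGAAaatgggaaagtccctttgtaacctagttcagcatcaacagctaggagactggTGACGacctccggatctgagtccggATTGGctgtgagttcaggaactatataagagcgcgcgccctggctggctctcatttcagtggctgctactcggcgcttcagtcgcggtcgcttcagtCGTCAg
Tap1: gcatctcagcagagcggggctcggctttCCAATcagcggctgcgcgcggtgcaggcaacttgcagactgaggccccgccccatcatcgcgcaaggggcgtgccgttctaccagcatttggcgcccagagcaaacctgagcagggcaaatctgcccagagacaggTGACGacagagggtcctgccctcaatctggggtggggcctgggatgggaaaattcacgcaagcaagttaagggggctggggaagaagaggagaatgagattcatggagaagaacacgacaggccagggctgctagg

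The H2-K1 and H2-D1 windows hold the same set of motif letters in the same order: GGGATTCCC, then TTTCACTTC, which is GAANNGAAA read on the other strand, then the X2 core TGACG, then the Y box ATTGG, and last the Y box read on the other strand. Counted from the start site of the window shown, in H2-K1 these begin at -110, -90, -41, -16 and 8, and in H2-D1 at -170, -150, -101, -76 and -53. Counted from the start site of the other H2-K1 window, the same motifs begin at -124, -104, -55, -30 and -6. The B2m window holds GAAACTGAA at -139, TGACG at -78 and ATTGG at -53. Over all 32851 windows, GGGATTCCC occurs in 0.353%, GAAANNGAA in 8.56%, GAANNGAAA in 7.52%, TGACG in 20.8% and ATTGG in 37.4%. Of the 9 windows that match 8 of the genes (H2-K1 has a pair of overlapping ones, so its motifs count in both), 3 hold GGGATTCCC, 1 holds GAAANNGAA, 3 hold GAANNGAAA, 6 hold TGACG and 7 hold ATTGG. The full X2 box TGACGTCA, found in 1.79% of all windows, is in 0 of the 9, which says only that these letters are not in these stretches. The RefSeq start site of Tap1 lies 226 bases from that of Psmb9 on the opposite strand, although the gene spans printed for Tap1 and Psmb9 overlap. Thus 275 bases of their windows are the same DNA, with the X2 core and a Y box of the Tap1 window inside them.

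The peptide transporter chains differed in how they varied. Tap1 (ENSMUSG00000037321, chr17:34187553-34197225, plus strand) had 53.0, 63.5 and 116 CPM in VEGF/LysM and 55.8, 102 and 140.1 CPM in WT, a 2.64-fold span between the lowest and the highest library. It followed the pattern of the heavy chains, with WT replicate 1 low and VEGF/LysM replicate 3 high, and its log2 fold change was -0.36 ± 0.41. That of Tap1 was -0.038 without WT replicate 3 and -0.77 without VEGF/LysM replicate 3. Tap2, the partner chain (ENSMUSG00000024339, chr17:34203527-34216321, plus strand), had 57.1, 79.0 and 89.5 CPM in VEGF/LysM and 81.2, 78.9 and 91.3 CPM in WT. Only VEGF/LysM replicate 1 stood away from the other Tap2 values, and its log2 fold change was -0.16 ± 0.19 (95% interval -0.60 to 0.28), or -0.00928 without VEGF/LysM replicate 1. Tapbp, the tapasin bridge between pump and class I molecule (ENSMUSG00000024308, chr17:33915899-33929292, plus strand), had 184, 199.5 and 206 CPM in VEGF/LysM and 214, 229 and 255 CPM in WT. Every VEGF/LysM library of Tapbp lay below every WT library, with a log2 fold change of -0.24 ± 0.14 (95% interval -0.57 to 0.09), unadjusted p = 0.125. Of the 31-base words of Tapbp transcripts, 26.9% occur in another gene, most of them in its antisense gene Gm19412 (22.1%), which had 0 counts in every library. Scaled to library totals alone, the groups of Tapbp overlapped, since WT replicate 3 then stood at 198 CPM, against 189 to 213 CPM in VEGF/LysM.

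Among the immunoproteasome subunits, Psmb10 separated the groups and the other 2 did not. Psmb10, also called MECL-1 (ENSMUSG00000031897, chr8:105935735-105938444, minus strand), had 58.9, 73.9 and 74.7 CPM in VEGF/LysM and 82.3, 86.5 and 105 CPM in WT, each of the 3 VEGF/LysM values lying under the lowest WT value. Its log2 fold change was -0.40 ± 0.16 (95% interval -0.78 to -0.02), with an unadjusted p of 0.0399 and an adjusted p of 0.999 in edgeR's test, so it did not pass. Over the 16 alternative settings its log2 fold change ran from -0.47 to -0.29, and the groups of Psmb10 stayed apart with library-total scaling as well, at 60.6 to 77.1 CPM in VEGF/LysM and 81.9 to 90.7 CPM in WT. The unadjusted p of Psmb10 did not stay under 0.05 with library-total scaling, nor without VEGF/LysM replicate 1 or 2 or WT replicate 2 or 3, where 0 of the 10 genes reached that mark. Psmb8, also called LMP7 (ENSMUSG00000024338, chr17:34197721-34201454, plus strand), had 38.5, 51.9 and 67.9 CPM in VEGF/LysM and 43.0, 79.6 and 87.0 CPM in WT (-0.40 ± 0.31). Psmb9, also called LMP2 (ENSMUSG00000096727, chr17:34181987-34187764, minus strand), had 35.5, 44.7 and 67.7 CPM in VEGF/LysM and 47.6, 69.7 and 79.1 CPM in WT (-0.41 ± 0.29). Without WT replicate 3 the log2 fold changes were -0.223 for Psmb8 and -0.257 for Psmb9, and without VEGF/LysM replicate 3 they were -0.627 and -0.705. In both Psmb8 and Psmb9 the WT replicate 1 value lay inside the VEGF/LysM range, so the equal fold changes of the 3 subunits rest on different spreads.

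Set against the standard subunit that each replaces, Psmb8 and Psmb9 varied mainly between libraries of the same group. Psmb10 varied less within groups, with SDs of its log2 ratio of 0.25 in VEGF/LysM and 0.2 in WT. The ratio of Psmb8 to Psmb5 counts was 0.282, 0.265 and 0.483 in VEGF/LysM and 0.223, 0.567 and 0.712 in WT. WT replicate 1 had the lowest ratio of the 6 and WT replicate 3 the highest. The ratio of Psmb9 to Psmb6 was 0.289, 0.32 and 0.588 in VEGF/LysM and 0.309, 0.571 and 0.616 in WT, with VEGF/LysM replicate 3 between WT replicates 2 and 3. The ratio of Psmb10 to Psmb7 was 0.487, 0.547 and 0.688 in VEGF/LysM and 0.632, 0.718 and 0.839 in WT, overlapping only through VEGF/LysM replicate 3. On the log2 scale the differences, VEGF/LysM minus WT, were -0.44, -0.33 and -0.35 for Psmb8, Psmb9 and Psmb10, with two-sided exact permutation p of 0.6, 0.5 and 0.2 (0.6 each adjusted over the 3 pairs), where 3 against 3 libraries cannot go below 0.1. Without WT replicate 3 these differences were -0.103, -0.148 and -0.246, and without WT replicate 1 they were -0.942, -0.647 and -0.45. A ratio within a library does not depend on scaling, but counts are not corrected for length here, so its size is not the share of immunoproteasomes. The standard subunits themselves had log2 fold changes of 0.052 ± 0.23 (Psmb5), -0.099 ± 0.15 (Psmb6) and -0.045 ± 0.13 (Psmb7), the last of which lay above 0 with library-total scaling.

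**Figure D2:**
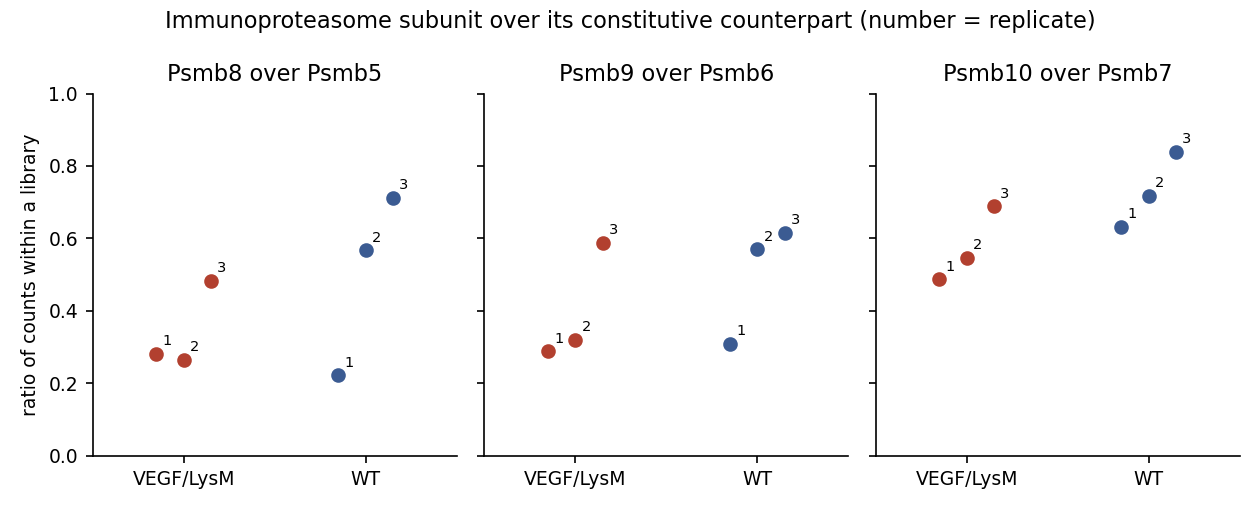
Counts of each immunoproteasome subunit divided by counts of the standard subunit it replaces (vertical axis, ratio within a library), for VEGF/LysM and WT; points are libraries with their replicate number. The ratios run from 0.223 to 0.839, and in the Psmb8 and Psmb9 panels WT replicate 1 lies with VEGF/LysM replicates 1 and 2.

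Nlrc5, the transactivator that switches on class I promoters, varied most (ENSMUSG00000074151, chr8:94434356-94527272, plus strand). It had 23.8, 19.9 and 67.6 CPM in VEGF/LysM and 18.5, 38.4 and 116 CPM in WT, a 6.23-fold span between libraries, against 1.39-fold for Tapbp. Replicate 3 was the highest library in each group, and the groups overlapped. Its log2 fold change of -0.63 had a 95% interval of -2.37 to 1.11, and its direction turned without WT replicate 3 (0.37). Without both libraries with liver transcripts it was -0.38. The Nlrc5 counts ran from 326 to 1556, so counting error is small beside this spread.

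Most of the 10 genes had the same 3 high libraries, 1 of them VEGF/LysM and the others WT. For 7 of the 10, VEGF/LysM replicate 3, WT replicate 2 and WT replicate 3 were the 3 highest, with TMM scaling and with library totals alike; the exceptions were Tap2, Tapbp and Psmb10. WT replicate 3 was the highest library for 8 genes with TMM scaling but for 1 with library totals, where WT replicate 2 was highest for 7, so the order among the high libraries depends on scaling. VEGF/LysM replicate 1 was the lowest library for 8 genes under both scalings. Averaged over the 10 genes, log2 deviations from a gene's own mean were -0.50, -0.30 and 0.28 in VEGF/LysM replicates 1, 2 and 3, against -0.35, 0.28 and 0.59 in WT replicates 1, 2 and 3. The distance between high and low libraries inside each group was thus wider than the difference between group means.

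**Figure D3:**
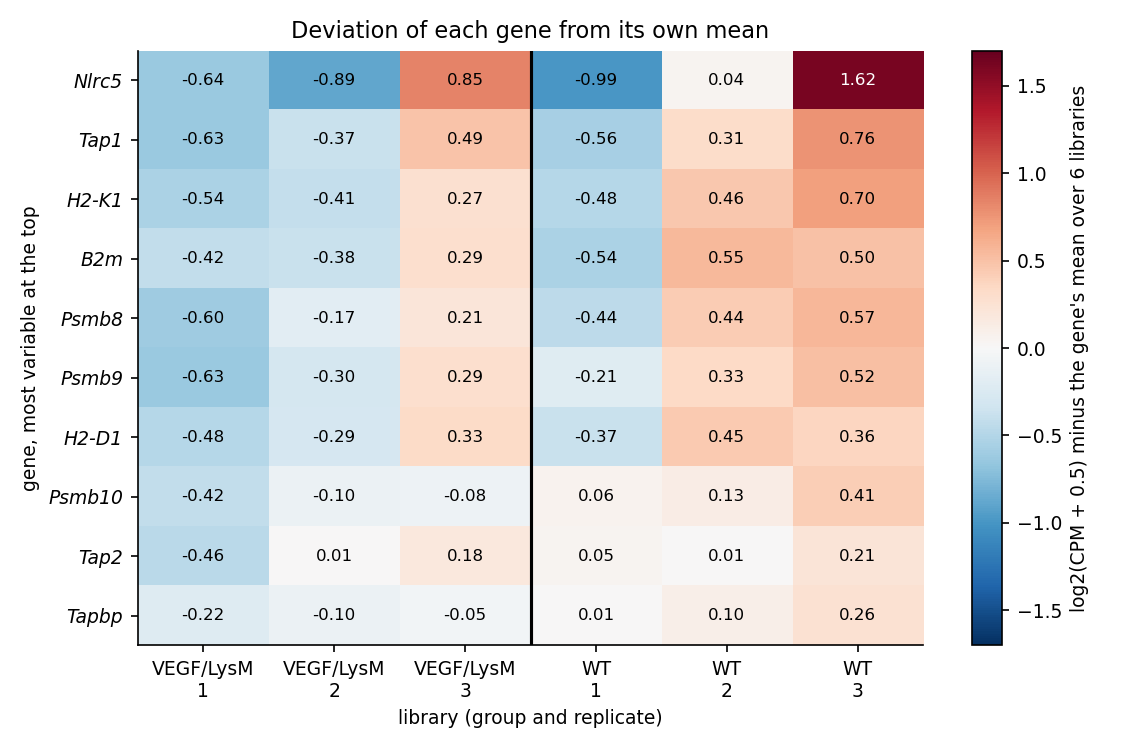
Log2(CPM + 0.5) of each gene minus its mean over the 6 libraries (colour and printed value), genes ordered by spread, VEGF/LysM libraries left of the line and WT libraries right of it. Nlrc5 spans from -0.99 to 1.62, Tapbp from -0.22 to 0.26, and the column of WT replicate 1 resembles those of VEGF/LysM replicates 1 and 2 for the 7 upper genes.

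Some other gene lists were high in the same libraries and some were not. Interferon gamma targets outside antigen presentation (14 genes, among them the guanylate-binding proteins Gbp2 to Gbp7 and the GTPase Irgm1) summed to 378, 409 and 674 CPM in VEGF/LysM replicates 1, 2 and 3, against 290.5, 634 and 1013 CPM in WT replicates 1, 2 and 3. All 13 of them that were tested had the same 3 highest libraries, which holds for 6.35% of all genes tested. Markers of antigen-presenting cells (7 genes, MHC class II among them) summed to 700.4, 717 and 1857 CPM in VEGF/LysM and 848, 1520.1 and 1709 CPM in WT, and 7 of 7 had those libraries highest. The pan-leukocyte list (Ptprc and 4 others) summed to 139, 126 and 208 CPM in VEGF/LysM and 142, 179 and 630.1 CPM in WT, also with 5 of 5. Macrophage markers (12 genes) summed to 534, 474 and 631 CPM in VEGF/LysM and to 584, 757 and 695 CPM in WT. Their sum was highest in the same 3 libraries, though only 3 of 12 markers singly had those libraries highest. Without Lyz2 the other 11 summed to 402, 363 and 498 CPM in VEGF/LysM and to 398, 483 and 432 CPM in WT. This sum too was highest in those libraries, and the median log2 fold change of the 12 was -0.028. Endothelial markers (7 genes) ranged from 655 to 787 CPM in VEGF/LysM and from 622 to 735 CPM in WT, with 0 of 7. T, B and NK cell markers (14 genes) summed to 98.4, 139.6 and 76.3 CPM in VEGF/LysM and to 278, 158 and 1154 CPM in WT, lowest in VEGF/LysM replicate 3, and 6 of 14 had those libraries highest. Hepatocyte transcripts summed to 255 CPM in VEGF/LysM replicate 3, and to 2.32 and 78296 CPM in WT replicates 2 and 3. No marker of these leukocyte, macrophage or endothelial lists was at 0 in any library. The part of any of these cells, or of liver or kidney RNA, in the class I values was not tested. The 3 libraries were singled out from the values of the 10 genes, so these counts describe and do not test.

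**Figure D4:**
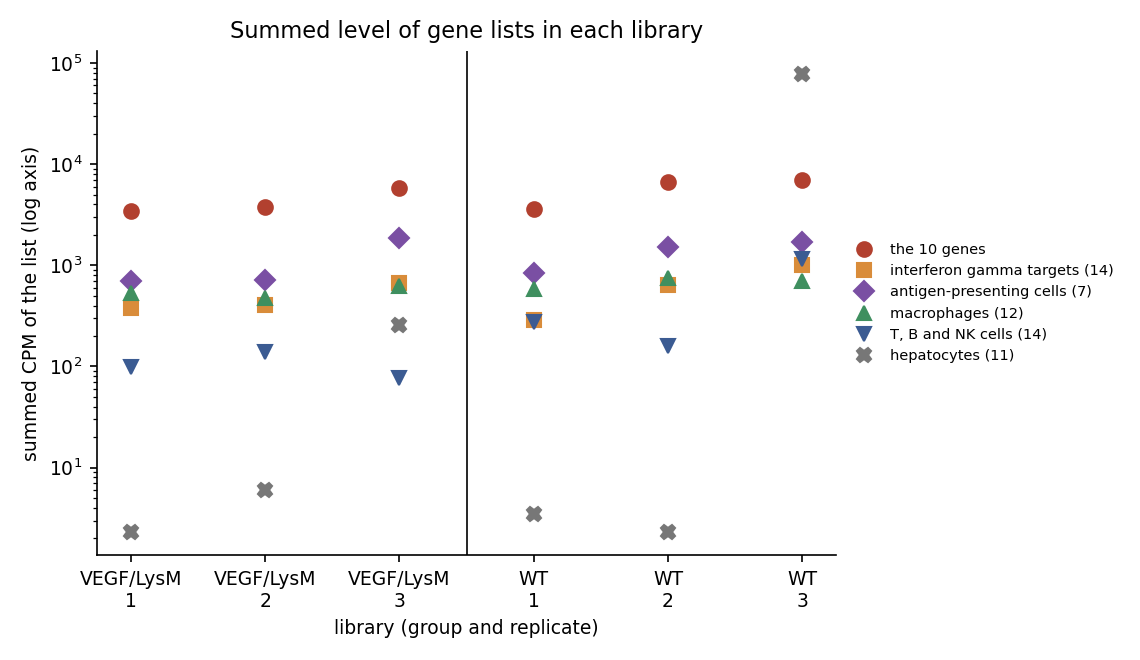
Summed TMM-scaled CPM of 6 gene lists in each library (logarithmic vertical axis; VEGF/LysM left of the line, WT right; the number of genes is in the key). The 10 genes, the interferon gamma targets and the antigen-presenting cell markers are all high in VEGF/LysM replicate 3 and WT replicates 2 and 3, while hepatocyte transcripts reach 78296 CPM in WT replicate 3 alone. The macrophage markers are also highest in those 3 libraries, within 474 to 757 CPM over all 6.

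The 5 genes outside the 10 nearest to the mean profile of the 10, among 10506 with a mean of at least 10 CPM, were H2-T22, Parp14, Irf1, Uba7 and Irgm1. Nearness was the root-mean-square difference of centred log2 levels over the 6 libraries, 0.046 for H2-T22, a class I gene of the T region, and 0.11 to 0.124 for the other 4, against 0.464 for the median gene. Of the 10 themselves, Psmb9 lay nearest to their mean (0.0846) and Nlrc5 farthest (0.607). H2-T22 had 87.6, 104 and 142 CPM in VEGF/LysM and 96.7, 144 and 179 CPM in WT. With 6 libraries, 1 of which stood apart, such nearness is a description of these samples.

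Of 62 other pathway genes listed, 58 were tested and 0 were called: 13 were above 0 and 45 below, their median was -0.077 on the log2 scale, and in 0 of the 58 did the groups fail to overlap, against 5.95% of all genes tested. Of 13 other class I genes tested, 11 were below 0, and 9 had the same 3 highest libraries as the 10 genes. H2-Q7, a Qa-2 gene, had 29.1, 33.5 and 100.3 CPM in VEGF/LysM and 38.9, 98.7 and 172 CPM in WT (-0.92 ± 0.65, or -0.351 without WT replicate 3). H2-T23, which encodes Qa-1, a ligand of natural killer cell receptors, had 147, 130.3 and 207 CPM in VEGF/LysM and 134, 196 and 369.6 CPM in WT (-0.53 ± 0.38, or -0.0344 without WT replicate 3 and -0.803 without WT replicate 1). H2-M3, which presents formylated peptides, averaged 14.3 ± 5.09 CPM in VEGF/LysM and 15.4 ± 3.42 CPM in WT (SD, n = 3 each). H2-Q10 had a log2 fold change of -3.65 ± 1.39 that was -0.218 without WT replicate 3 and -0.081 without both libraries with liver transcripts. The genes H2-Q1, H2-Q2, H2-T3 and H2-M10.1 were too low to test.

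Of 7 peptide loading genes, 5 were below 0 and 2 above, their median being -0.032 on the log2 scale, and the farthest from 0 was Tapbpl, a relative of tapasin (-0.45), named here after its values were seen. Calr, the chaperone calreticulin, averaged 487 ± 14.1 CPM in VEGF/LysM and 580 ± 249 CPM in WT (SD, n = 3 each), the highest WT value being 866 CPM in replicate 3, without which its log2 fold change was 0.152 in place of -0.25. Pdia3, the oxidoreductase ERp57 of the loading complex, averaged 591 ± 23.6 CPM in VEGF/LysM and 601 ± 41.1 CPM in WT (-0.026 ± 0.15) and lay above 0 with upper-quartile or library-total scaling. Erap1, which trims peptides, averaged 78.5 ± 2.59 CPM in VEGF/LysM and 87.2 ± 28.7 CPM in WT (SD, n = 3 each). Of 19 proteasome core, activator and assembly genes, 14 were below 0 and 5 above, within -0.24 to 0.065, and 0 of them had the 3 highest libraries of the class I genes. Psme1 and Psme2, the interferon-inducible PA28 activator chains, had -0.067 ± 0.16 and -0.12 ± 0.16, and Pomp, a proteasome assembly factor, had -0.047 ± 0.17, above 0 with library-total scaling. Among 19 regulators, 4 were above 0 and 15 below. Irf1, an interferon-induced transcription factor, had 40.9, 36.9 and 67.7 CPM in VEGF/LysM and 40.4, 64.2 and 74.2 CPM in WT (-0.30 ± 0.31, or -0.115 without WT replicate 3), while Rfx5, a subunit of the factor that binds the X box, had 0.20 ± 0.20.

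**Figure D5:**
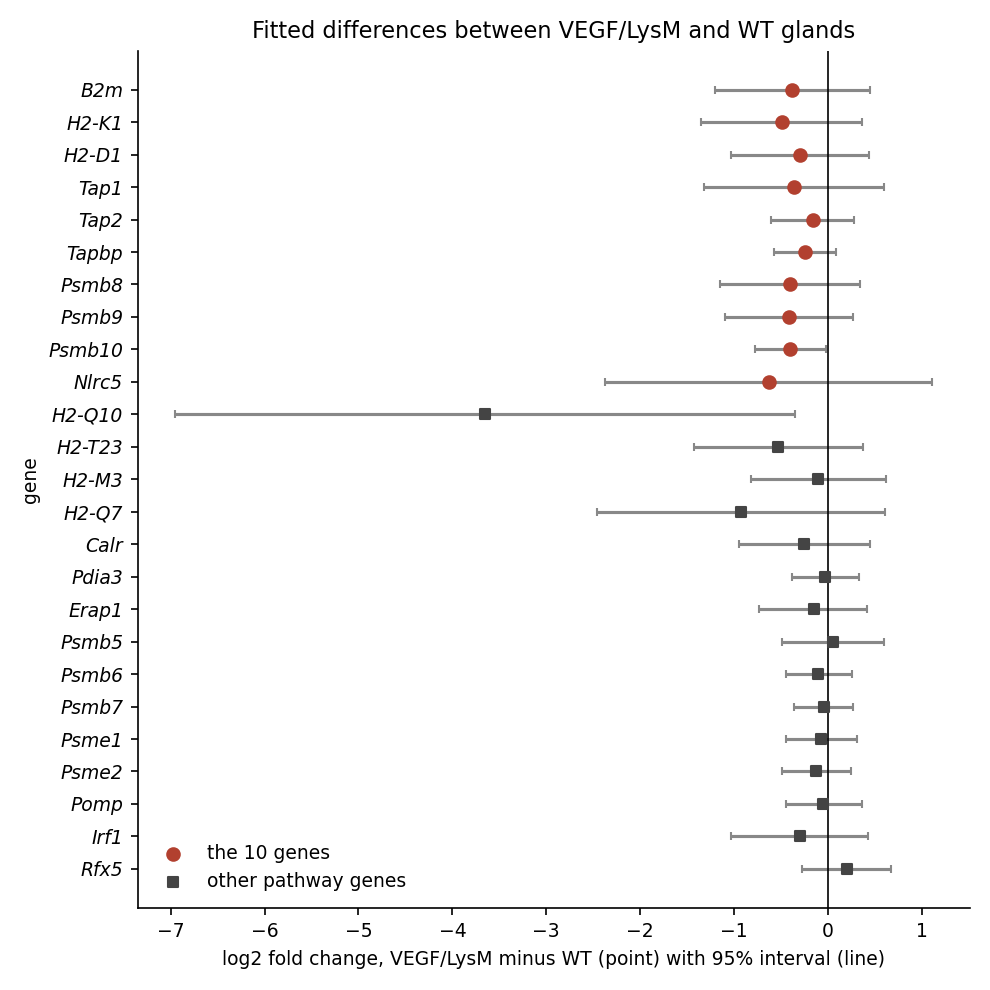
Log2 fold change, VEGF/LysM minus WT (horizontal axis), with 95% intervals from edgeR's fit for the 10 genes (circles) and 15 other pathway genes (squares). All 10 circles lie between -0.63 and -0.16; only the intervals of Psmb10 and H2-Q10 exclude 0, and neither passed after adjustment over all genes.

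Per kilobase of annotated exon, so that genes can be ordered, B2m stood highest, at 1064 to 2260 CPM per kilobase over the 6 libraries. H2-K1 (396 to 934) and H2-D1 (331 to 631) followed with overlapping ranges, then Tapbp (50.6 to 70.2) and Psmb10 (34.6 to 61.8), which also overlapped. Tap2 (15.1 to 24.1), Psmb8 (11.4 to 25.7), Tap1 (9.68 to 25.6) and Psmb9 (9.71 to 21.6) could not be ordered by their spread, and Nlrc5 was lowest on average at 4.37 ± 3.11 CPM per kilobase in VEGF/LysM and 6.77 ± 6.03 in WT (SD, n = 3 each). On this scale Psmb5 (136 to 218) stood above its immunoproteasome counterpart Psmb8 in every library, and Psmb6 (61.5 to 82.3) above Psmb9. Psmb10 averaged 40.6 in VEGF/LysM and 53.6 in WT, against 35.6 and 36.7 for Psmb7 (31.8 to 39.5 over the libraries). By counts alone Psmb10 stood below Psmb7 in every library, so the order of this pair depends on the exon lengths used. Exon lengths are unions over all annotated transcripts, so a gene with long minor transcripts is understated. The exons of Tap1 and Psmb9 overlap by 212 bases on opposite strands, and 3.26% of the 31-base words of Tap1 and 4.79% of those of Psmb9 lie there, so without strand reads from that stretch cannot be assigned to either gene.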

How the data were processed

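The submitters' processing notes name kallisto, DESeq2 1.36.0 and mm10, a mouse build. The role of each, the version of kallisto and the gene models were not given in the sources used here. Values were deposited as raw whole-number counts by the authors, 1 per gene and sample. Per the labels' protocols, libraries followed a Smart-seq2 protocol, which does not mark strand, from kit-purified RNA of high integrity. Symbols came from a gene name table (54409 of 54532 identifiers matched), and coordinates and exon lengths from GENCODE on GRCm38, the assembly that mm10 names.

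Counts were scaled by TMM after filterByExpr (minimum count 10, minimum total 15) and fitted with edgeR 4.0.16 (R 4.3.3), quasi-likelihood, with group as the only term, Benjamini-Hochberg adjustment over all genes tested and a threshold of 0.05. The TMM factor of WT replicate 3 was 0.84, and those of the other 5 libraries 1.02 to 1.05. The members and lists were chosen with earlier results of these data known. The text names all 10 members, 15 listed pathway genes whatever their values (1 more is not reported here), and the 5 genes of nearest profile. Sequence sharing was measured on transcripts, and protein identity was not analysed here. The fit was tested on simulated data. Alternatives were other scalings and filters, DESeq2 1.42.0, limma-voom (limma 3.58.1) with and without sample weights, a replicate block, a threshold of 0.1 and left-out libraries.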

Additional observations from a re-analysis of the deposited data

How the results depend on the processing

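The 10 genes had 0 calls under all 17 alternatives, and all 10 lay below 0 in each of them except without WT replicate 3. Of all genes tested, 0 were called in each alternative except without WT replicate 3, where 1 was (0 to 1 over the left-out libraries). Genes at an unadjusted p under 0.05 numbered 542 with DESeq2, 224 with limma-voom and 1098 with no filter, against 459, and over the left-out libraries they ran from 143 (without VEGF/LysM replicate 1) to 1279 (without WT replicate 2), with 911 without WT replicate 1. The median of the 10 genes ran from -0.64 to -0.21 over the left-out libraries.

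Of the 10 genes, only Nlrc5 turned direction (-1.39 to 0.37 over the left-out libraries). Other pathway genes near 0 turned. With upper-quartile scaling Pdia3 was 0.00436. With library-total scaling Pdia3 was 0.0517, Psmb7 0.0251 and Pomp 0.01. With sample weights Calr was 0.0351, Pdia3 0.0378 and Psmb7 0.000953. Over the left-out libraries H2-M3 ran from -0.43 to 0.0562, Psmb5 from -0.153 to 0.265, Pdia3 from -0.0724 to 0.0211, Psmb7 from -0.146 to 0.0307, Psmb6 from -0.197 to 0.0111, Psme1 from -0.181 to 0.0188, Pomp from -0.157 to 0.104, Calr from -0.439 to 0.152 and Erap1 from -0.375 to 0.0904. Without both libraries that hold liver transcripts Calr was 0.163, Pdia3 0.0596, Erap1 0.0762, Psmb5 -0.000763 and Psmb7 0.0372. The cause was not tested.

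The subunit ratio differences kept their sign and passed no test, but over the left-out libraries they ran from -0.942 to -0.103 (Psmb8), from -0.65 to -0.137 (Psmb9) and from -0.49 to -0.241 (Psmb10). Same-numbered libraries correlated at 0.0712, -0.00269 and 0.248, inside the range of differently numbered ones (-0.258 to 0.326), so the numbers were not taken as pairs. With the replicate number as a block, 0 genes were called, 270 had an unadjusted p under 0.05, the median of the 10 genes was -0.363, and exact sign-flip p for the ratios of Psmb8, Psmb9 and Psmb10 were 0.5, 0.25 and 0.25 at differences of -0.44, -0.33 and -0.35. Precision is limited by 3 libraries a group: the median 95% interval reached 0.607 log2 to either side.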
